A study of Mus musculus with 6 samples.

Results

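The genes described here are 7 members of the T-box family of transcription factors, Tbx1, Tbx2, Tbx3, Tbx4, Tbx5, Tbx18 and Tbx20. They were chosen by symbol, and all 7 of 7 were found among the 30631 genes listed in each library. Expression was measured by RNA sequencing in sinoatrial node-like cardiomyocytes, cells grown from mouse embryonic stem cells to resemble the heart's natural pacemaker. The wild type group (Shox2+/+ clones) and the Shox2-/- group, in which the homeodomain factor gene Shox2 is mutated, had 3 libraries each. Both groups went through the same hanging drop differentiation and the same flow sorting for the surface protein CD166 at stage 7+1 days. The 3 Shox2-/- titles share the prefix J2 and the wild type titles carry other prefixes, so the genotype cannot be told apart from the clone. The construction of the allele is not given in the sources used here. Nothing in the labels says that replicates came from separate cultures, so p-values measure the spread between these libraries, which may be technical.

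T-box factors bind DNA through a shared domain, the T-box, and act as activators or repressors of transcription. In the embryonic heart, Tbx5 is known to activate chamber genes together with Nkx2-5 and Gata4, while Tbx2 and Tbx3 compete for the same sites and repress those genes in slowly conducting myocardium. Tbx3 is known for keeping the pacemaker programme in the sinoatrial node, Tbx18 for building the sinus horns and the head of the node, and Tbx20 for limiting Tbx2 in the chambers. Tbx1 is known for the second heart field and pharynx, and Tbx4 for the hindlimb, allantois and lung, so these members are not textbook markers of pacemaker or atrium.

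The members resemble each other in sequence, which matters for a count made by assigning reads to genes. The stretches below are 90 coding bases of 6 of the genes from the end part of the T-box, taken from GENCODE transcripts of GRCm38, with capitals where all 7 genes hold the same base. All 7 agree at 49 of the 90 positions, or 54.4%.
Tbx1: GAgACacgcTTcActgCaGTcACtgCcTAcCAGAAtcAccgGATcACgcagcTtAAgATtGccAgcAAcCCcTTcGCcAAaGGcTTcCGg
Tbx18: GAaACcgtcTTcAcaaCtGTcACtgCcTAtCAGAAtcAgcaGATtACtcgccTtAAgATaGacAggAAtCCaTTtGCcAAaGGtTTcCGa
Tbx20: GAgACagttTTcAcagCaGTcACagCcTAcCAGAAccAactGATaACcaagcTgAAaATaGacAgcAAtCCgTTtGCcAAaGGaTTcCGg
Tbx2: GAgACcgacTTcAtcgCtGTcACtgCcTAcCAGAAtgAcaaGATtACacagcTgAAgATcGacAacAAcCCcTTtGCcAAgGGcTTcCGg
Tbx3: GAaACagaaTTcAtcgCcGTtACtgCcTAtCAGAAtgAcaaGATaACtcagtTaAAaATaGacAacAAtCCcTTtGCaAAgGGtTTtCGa
Tbx5: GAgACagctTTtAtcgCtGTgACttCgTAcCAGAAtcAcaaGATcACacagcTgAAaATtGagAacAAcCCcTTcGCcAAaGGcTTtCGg
Each stretch spans 1 exon junction. On the plus strand lie Tbx2 (chr11:85835900-85837100), Tbx3 (chr5:119675663-119677548) and Tbx5 (chr5:119845076-119853576). On the minus strand lie Tbx1 (chr16:18582927-18583460), Tbx18 (chr9:87713515-87715564) and Tbx20 (chr9:24750341-24758767).

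Over 312 codon positions shared by all members, Tbx2 and Tbx3 had 70.0% of bases in common and Tbx4 and Tbx5 had 69.2%. The other 19 pairs had between 48.2% and 55.3% in common. Over whole transcripts the longest run that any pair shared exactly was 32 bases, in Tbx4 and Tbx20, outside the coding sequence of at least 1 of them. Among pairs whose longest run lay within both coding sequences, the longest was 23 bases, in Tbx4 and Tbx5. Coding sequence was not searched by itself. The read length is not given in the sources used here.

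The neighbours in the genome are other pairs. Tbx2 (chr11:85832551-85841948) and Tbx4 (chr11:85886422-85916097) lie 44.5 kb apart with 1 annotated gene between them. Tbx3 (chr5:119670669-119684724) and Tbx5 (chr5:119832668-119885219) lie 147.9 kb apart with 3 genes between them, of which 0 code for protein. Tbx20 (chr9:24718138-24774303) and Tbx18 (chr9:87702800-87731260) share chromosome 9 but are 62928.5 kb apart, and Tbx1 (chr16:18580979-18590671) stands alone. All positions are GRCm38 with the GENCODE M21 annotation, and a gene's value covers its exons without a division between coding and untranslated parts.

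Values are read counts per gene that the authors divided by 1 size factor per library, called normalized counts here. Dividing out that factor gave back between 13504683 and 34650563 reads per library, and every value at the low end was a whole number of reads within 0.1 reads. Wild type libraries 1 and 2, whose titles share the number Diff9 with Shox2-/- library 3, lay closest together, with a median absolute log2 difference over all tested genes of 0.092, against 0.185 to 0.403 in the other pairs of libraries. Shox2 itself had 89.6, 83.4 and 31.4 normalized counts in the wild type libraries and 200.7, 548 and 373 in those labelled Shox2-/- (log2 difference 2.46, adjusted p = 0.201). The targeted gene was thus read more in the libraries labelled as mutant, so each direction given is between libraries labelled Shox2-/- and libraries labelled wild type. Which bases of the gene the allele lacks is not given in the sources used here, so a count over the whole gene may not check the allele. Alcam, which encodes CD166, had 6591, 6526 and 5841 normalized counts in wild type and 4176, 5312 and 4304 in Shox2-/- libraries (log2 difference -0.47, adjusted p = 0.242).

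By mean level, Tbx20 and Tbx4 were highest, with Tbx2 next, Tbx3, Tbx18 and Tbx5 below it, and Tbx1 at the limit of detection. Levels of different genes are compared per kilobase of merged exons. In wild type libraries the order of normalized counts per kilobase was Tbx20 at 593 ± 108 (SD, n = 3), Tbx4 at 521 ± 336 and Tbx2 at 183 ± 32.9. Below these came Tbx3 at 57.5 ± 12.8, Tbx18 at 34.4 ± 5.68, Tbx5 at 29.8 ± 15.2 and Tbx1 at 0.396. Neighbours whose ranges overlapped were Tbx20 and Tbx4, Tbx4 and Tbx2, and Tbx18 and Tbx5. In wild type library 3 Tbx4, at 133 per kilobase, lay below Tbx2, at 220. In Shox2-/- libraries Tbx4 (653 ± 205 per kilobase) and Tbx20 (650 ± 86.6) overlapped at the top. They were followed by Tbx2 at 298 ± 76.5, Tbx3 at 108 ± 80.4, Tbx5 at 20.2 ± 0.652, Tbx18 at 15.4 ± 4.47 and Tbx1 at 0.248, where Tbx5 and Tbx18 overlapped. With the longest transcript as the length, Tbx20 stood above Tbx4 in Shox2-/- libraries (858 against 704 per kilobase) and Tbx5 above Tbx18 in wild type (35.4 against 34.7). With that length Tbx2 (from 211) and Tbx3 (up to 265) overlapped in Shox2-/- libraries, and Tbx5 and Tbx18 did not.

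**Figure D1:**
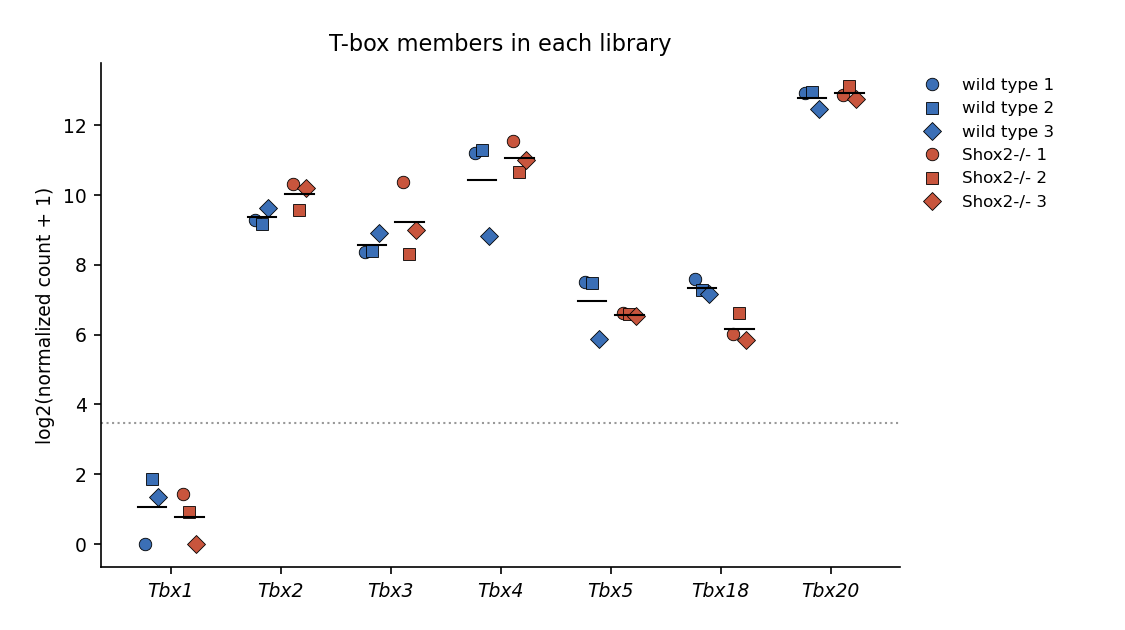
Level of each T-box gene in each library, as log2 of the normalized count plus 1, with wild type in blue, Shox2-/- in red and a bar at the mean of the 3 libraries. The dotted line marks a normalized count of 10, the value a gene had to reach in 3 libraries to be tested, and Tbx1 lies under it in all 6 libraries while the other members lie above it.

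Between the groups, 6 of the 7 members passed the filter (10 or more normalized counts in no fewer than 3 libraries) and 0 of them passed the test, which was limma on log2(value + 1) with Benjamini-Hochberg adjustment over 17034 genes. Over all those genes 0 were called, or 0%, with a lowest adjusted p of 0.0954. At an unadjusted p under 0.05 stood 2411 genes, or 14.2%, and 2 members, Tbx2 on the higher side in Shox2-/- and Tbx18 on the lower side. The same tool with voom and sample quality weights called 303 genes, and voom without those weights called 0. Groups did not overlap for 4023 genes, or 23.6%, and for 1 member, Tbx18. Of the members, 4 had a higher and 2 a lower mean log2 value in Shox2-/-, and 51.8% of all tested genes were higher.

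Tbx18, which marks the progenitors of the sinus horns and is needed for the head of the sinoatrial node, was lower in every Shox2-/- library than in any wild type library. Its normalized counts were 193, 153 and 141 in wild type and 64.0, 96.5 and 57.0 in Shox2-/- libraries. The means were 162 ± 26.8 and 72.5 ± 21.1 (SD, n = 3), a ratio of 2.24 for wild type over Shox2-/-. The log2 difference was -1.18 with a standard error of 0.26 (95% interval -1.78 to -0.57, unadjusted p = 0.00237, adjusted p = 0.21), so it did not pass the test across all genes. In this direction 7.23% of all genes had an unadjusted p under 0.05 and 10.8% had groups that did not overlap. With any 1 library left out the difference stayed between -1.40 and -1.02. Adjusted p over all alternatives ran from 0.0529 to 0.523. The values rest on few reads, between 37 and 235 per library, and 37 reads carry a counting error of 16.4%. A transcript on the opposite strand, D030062O11Rik, shares 970 exon bases with Tbx18 in the annotation and is not used here. Strand use in counting is not stated, so reads from that stretch cannot be told apart.

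The 250 bases before the start of Tbx18 are shown because it was the member with separate groups and because Shox2 encodes a homeodomain protein. They lie on the minus strand at chr9:87731261-87731510 (GRCm38.p6, RefSeq), with CG pairs in capitals.
Tbx18 promoter: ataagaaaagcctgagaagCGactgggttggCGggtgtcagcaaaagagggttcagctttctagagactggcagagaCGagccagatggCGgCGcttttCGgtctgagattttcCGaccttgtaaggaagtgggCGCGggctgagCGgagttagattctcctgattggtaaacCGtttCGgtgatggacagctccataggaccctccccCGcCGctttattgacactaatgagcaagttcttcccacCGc
This window holds 15 CG pairs and 54.0% G and C, against a median of 52.4% over 32841 promoter windows of that length. It holds 0 matches, on either strand, of the T-box binding motif GGTGTGA, which 3.33% of all windows hold, and 0 of the homeodomain palindrome TAATTA, which 4.84% hold. Neither motif contains the other, and the result says only that these letters are not in this window. Promoter entries were found for 4 members, Tbx1, Tbx4, Tbx18 and Tbx20.

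Tbx2, a repressor of chamber genes in the atrioventricular canal and outflow tract, was the member with the lowest unadjusted p on the higher side. It had 617, 571 and 797 normalized counts in wild type and 1287, 765 and 1188 in Shox2-/- libraries. Shox2-/- library 2 lay below wild type library 3, so the groups overlapped by that 1 pair. The means were 662 ± 119 and 1080.1 ± 277 (SD, n = 3), with a log2 difference of 0.69 and a standard error of 0.22 (95% interval 0.16 to 1.21). The unadjusted p was 0.0175 and the adjusted p was 0.287, and 6.92% of all genes had an unadjusted p under 0.05 on the higher side. With wild type libraries 1 and 2 averaged as 1 sample the unadjusted p was 0.0532, and with 1 library left out it ran from 0.00159 to 0.0651, over 0.05 without wild type library 2, Shox2-/- library 1 or Shox2-/- library 3. With sample quality weights the difference was 0.85 and the adjusted p 0.0436, under the threshold, and over all alternatives the adjusted p ran from that value to 0.586. Those weights gave wild type library 3 a weight of 0.2058 and wild type libraries 1 and 2 weights of 3.595 and 4.224.

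Of the genes within 10 kb of Tbx2, Bcas3 stood on the other side. Bcas3, which ends 6492 bases before Tbx2 on the same strand, had 803, 723 and 582 normalized counts in wild type and 412, 402 and 493 in Shox2-/- libraries. All Shox2-/- values of Bcas3 lay below all wild type values, with a log2 difference of -0.68 and a standard error of 0.16 (unadjusted p = 0.0035, adjusted p = 0.226). The divergent transcript 2610027K06Rik, 327 bases from Tbx2, was read at 35.8 to 65.2 normalized counts, with a log2 difference of 0.18 (adjusted p = 0.809). Gm11444, on the other side, stayed at or under 8.3 normalized counts and was not tested.

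Tbx3, the repressor that is a defining factor of the conduction system, was set apart by 1 library. Its normalized counts were 330, 334 and 479 in wild type and 1320.1, 317 and 508 in Shox2-/- libraries. Shox2-/- library 1 was 4.16 times Shox2-/- library 2, and the latter was the lowest of all 6. The means were 381 ± 84.8 and 715 ± 532 (SD, n = 3), and the log2 difference was 0.67 with a standard error of 0.48 (95% interval -0.45 to 1.79, adjusted p = 0.539). Without Shox2-/- library 1 the difference was 0.10 (unadjusted p = 0.732), and without Shox2-/- library 2 it was 1.12 (unadjusted p = 0.0316). Its antisense transcript Tbx3os1 overlaps 115 exon bases and had 2.61 to 18.8 normalized counts, a small part of the Tbx3 values, with no strand stated for the counting. Tbx3os2, beyond the end of Tbx3, had at most 5.19 and was not tested.

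Tbx5, the chamber activator whose loss gives defects of atrium and conduction, showed a split within the wild type group. Its normalized counts were 183, 179 and 57.3 in wild type and 96.9, 95.6 and 91.1 in Shox2-/- libraries. The Shox2-/- libraries lay within a few counts of each other, below wild type libraries 1 and 2 and above wild type library 3. The means were 139 ± 71.2 and 94.5 ± 3.05 (SD, n = 3), with a log2 difference of -0.38 and a standard error of 0.44 (95% interval -1.41 to 0.65, unadjusted p = 0.413, adjusted p = 0.718). Without wild type library 3 the difference was -0.93 (unadjusted p = 0.00137, adjusted p = 0.191). It was -0.10 without wild type library 1, -0.12 without wild type library 2 and -0.11 with those libraries averaged as 1 sample. The adjusted p over all alternatives ran from 0.135 to 0.952. Reads behind Tbx5 numbered 56 to 274 per library.

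Tbx4 had the largest gap between libraries of the same group, 2.46 on the log2 scale between wild type libraries 2 and 3. Its normalized counts were 2370.1, 2493 and 454 in wild type and 2986, 1627 and 2049 in Shox2-/- libraries. Wild type library 3 was the lowest of all 6, and the other wild type libraries lay inside the Shox2-/- range. The means were 1772 ± 1144 and 2221 ± 696 (SD, n = 3), with a log2 difference of 0.63 and a standard error of 0.63 (95% interval -0.85 to 2.11, adjusted p = 0.673). Without wild type library 3 the sign turned, to -0.18 (unadjusted p = 0.495).

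Tbx20, which is needed for growth and identity of the myocardium, had the smallest standard error. Its normalized counts were 7796, 7925 and 5627 in wild type and 7516, 8946 and 6927 in Shox2-/- libraries. Wild type library 3 was again the lowest, and the groups overlapped. The means were 7116 ± 1291 and 7796 ± 1038 (SD, n = 3), with a log2 difference of 0.14 and a standard error of 0.17 (95% interval -0.25 to 0.53, adjusted p = 0.725). Without wild type library 3 it was -0.02 (unadjusted p = 0.877). The 95% interval reaches no further than 0.53 on the log2 scale in either direction.

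Tbx1 was barely detected. Its normalized counts were 0, 2.61 and 1.57 in wild type and 1.73, 0.89 and 0 in Shox2-/- libraries, which stand for 0, 4 and 2 reads and for 1, 1 and 0 reads. The groups hold 6 reads (exact 95% Poisson interval 2.2 to 13.1) and 2 reads (0.242 to 7.22). Relative to the summed size factors of each group, the wild type rate was 2.68 times the other with an interval from 0.479 to 27.2, so a difference was not detectable at this depth. A count of 0 allows up to 4.98 normalized counts in wild type library 1 and 2.22 in Shox2-/- library 3, taking 3 reads as the limit. These intervals cover counting error only.

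**Figure D2:**
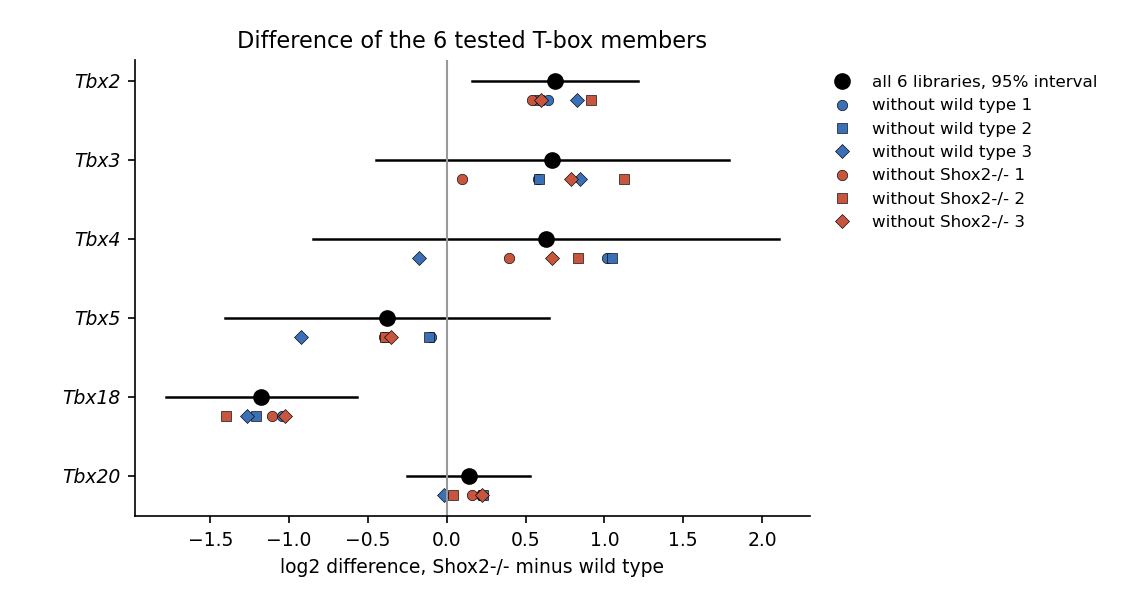
Log2 difference of Shox2-/- minus wild type for the 6 tested members, with black points and 95% intervals for all 6 libraries and small coloured points for the value with 1 library left out. Tbx18 stays left of -1.02 throughout, Tbx3 comes to 0.10 without Shox2-/- library 1, and Tbx4 and Tbx20 cross 0 without wild type library 3.

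Across the 6 libraries the members showed different profiles. Tbx2 and Tbx3 were both highest in Shox2-/- library 1, with a Pearson r of 0.823 over the 6 libraries on the log2 scale. Tbx2 and Tbx18 ran opposite to each other, with r of -0.924. Tbx4, Tbx5 and Tbx20 were each lowest in wild type library 3, and r was 0.732 for Tbx4 with Tbx5 and 0.731 for Tbx4 with Tbx20. These values describe 6 libraries that differ in depth and in cell type markers, and no test is attached to them. Among the members, the median absolute log2 difference between wild type libraries 1 and 2 was 0.0523, with the largest difference, 0.328, at Tbx18. From wild type library 3 those libraries differed by medians of 0.502 and 0.507, and most at Tbx4, by 2.38 and 2.46. The Shox2-/- libraries differed from each other by medians of 0.141 to 0.667, and most in 1 comparison by 2.05 at Tbx3.

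**Figure D3:**
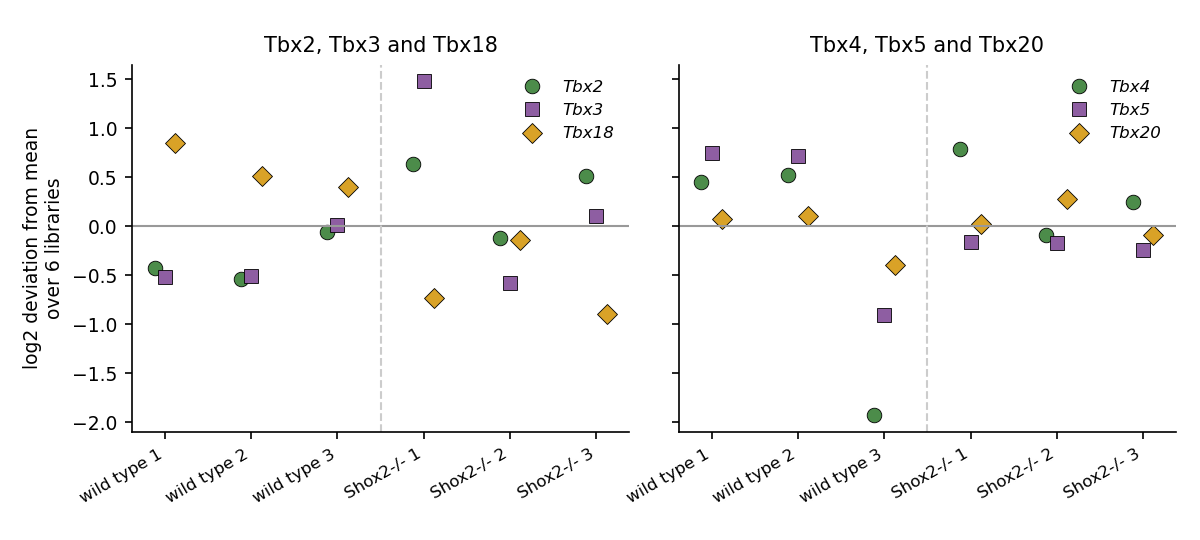
Deviation of each library from a gene's own mean over the 6 libraries, in log2 units, for Tbx2, Tbx3 and Tbx18 on the left and Tbx4, Tbx5 and Tbx20 on the right. A dashed line parts wild type from Shox2-/- libraries, and wild type library 3 lies lowest for each gene on the right.

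Markers of cell types also differed between these libraries. Wild type library 3, lowest for Tbx4, Tbx5 and Tbx20, had a summed normalized count of 17550 over 11 cardiomyocyte markers. The other wild type libraries had 37491 and 39155, and Shox2-/- libraries had 19107 to 43279. The sum of 19107 was in Shox2-/- library 1, where Tbx4 was the highest of all 6 (2986) and Tbx20 stood at 7516. Without Ttn, the most abundant cardiomyocyte marker, that sum was 14568 in wild type library 3, 14598 in Shox2-/- library 1 and 22246 to 26966 elsewhere. Over 6 endothelial markers wild type library 3 had 3544, against 13947 and 13994 in wild type and 7984 to 12288 in Shox2-/- libraries. Without Kdr, the most abundant endothelial marker, the sum was 1026 there, 1099 in Shox2-/- library 1 and 2318 to 4517 elsewhere. Wild type library 3 was the highest of all 6 over 11 mesenchyme markers (590000, against 189560 to 382760), over 10 endoderm markers (8649, against 618 to 4176) and over 8 neural markers (2299, against 572 to 940). Shox2-/- library 1, highest for Tbx3, had the lowest sums for epicardium (2702, against 4840 to 8582), mesenchyme and endoderm. The mesenchyme extremes stayed without Col3a1, its most abundant marker (256030 in wild type library 3, 77960 in Shox2-/- library 1). Its single markers were split. Col1a1, Col1a2, Col3a1 and Lum were highest in wild type library 3, but Pdgfra, Pdgfrb and Twist1 were lowest there. Pdgfra, Pdgfrb, Twist1 and Prrx1 were highest in Shox2-/- library 1. Without Afp, the most abundant endoderm marker, wild type library 3 was no longer highest for endoderm (1628, against 547 to 2686). In each of these lists 0 markers were at 0 in every library. In bulk samples, fewer cells of a type and less RNA per cell cannot be told apart, and the part of these markers in the members' values was not tested.

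The labelled cell type was checked against its markers. Over 13 pacemaker markers the summed normalized count was 18126 to 18401 in wild type and 12975 to 13849 in Shox2-/- libraries, groups that did not overlap. This gap rests on Igfbp5, an IGF binding protein, with 9620, 9926 and 6114 in wild type and 4626, 3316 and 2829 in Shox2-/- libraries. Without it the sums were 8506, 8222 and 12287 against 9223, 10043 and 10146, which overlap only through wild type library 3. That library had Smoc2 at 5712, against 1859 and 1756 in wild type libraries 1 and 2. In Shox2-/- libraries Smoc2 had 445, 1246 and 1730. Sums without both Igfbp5 and Smoc2 were not computed, so a lack of difference in the other markers was not shown. Hcn4, the main pacemaker channel, had 297, 293 and 79.3 in wild type and 306, 241 and 276 in Shox2-/- libraries. At an unadjusted p under 0.05, 4 pacemaker markers were higher and 3 lower, against 6.92% and 7.23% of all genes, with 0 called. Tbx18 also marks epicardium, and 9 of 11 epicardium and proepicardium markers were tested. Where 51.8% of all tested genes had a higher mean in Shox2-/-, 8 of these 9 markers had a lower one. Of these, 2 had an unadjusted p under 0.05, 3 had groups that did not overlap, all lower, and 0 were called. Over all genes, 7.23% had such a p and 10.8% had such groups on the lower side. The count of 2 became 0 without Shox2-/- library 1, 6 without Shox2-/- library 2, and 1 without wild type library 1, wild type library 2 or Shox2-/- library 3. The epicardial sum was 6878, 6669 and 8582 in wild type and 2702, 6219 and 4840 in Shox2-/- libraries, lower in each Shox2-/- library, as Tbx18 was, and its part in the Tbx18 values was not tested. Bnc1, a mesothelial zinc finger factor, had 1761, 1764 and 1963 in wild type and 215, 1644 and 734 in Shox2-/- libraries (log2 difference -1.52, adjusted p = 0.35). Wt1, the classical epicardial factor, overlapped between groups at 1138 to 1324 in wild type and 618 to 1394 in Shox2-/- libraries (log2 difference -0.51, adjusted p = 0.436).

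Ratios between members compare the pairs that are neighbours or close relatives, 3 pairs in all. The log2 ratio of Tbx3 to Tbx5 was 1.60 ± 1.25 in wild type and 2.65 ± 1.03 in Shox2-/- libraries. Its difference of 1.05 had an exact two-sided permutation p of 0.3 (0.9 adjusted over the 3 pairs), where 0.1 is the smallest p that 3 against 3 libraries allow. The log2 ratio of Tbx2 to Tbx3 was 0.80 ± 0.087 in wild type, nearly fixed, and 0.82 ± 0.74 in Shox2-/- libraries (difference 0.02, exact permutation p = 1). The log2 ratio of Tbx2 to Tbx4 was -1.08 ± 1.64 and -1.03 ± 0.22 (difference 0.06, exact permutation p = 1). For the latter pairs the means were close while the spread was several times wider in 1 group than in the other.

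Among the other T-box family genes, 6 of 10 were tested and 0 called, with a median log2 difference of -0.16, against 0.01 over all tested genes. At an unadjusted p under 0.05, 1 was higher and 2 were lower, where 6.92% and 7.23% of all genes stood on those sides. The total of 3 was 1 without Shox2-/- library 2 or Shox2-/- library 3. Tbx15, known for skeletal and brown fat development, had 159, 152 and 291 normalized counts in wild type and 77.9, 42.9 and 90.4 in Shox2-/- libraries, without overlap (log2 difference -1.50, standard error 0.37, adjusted p = 0.227). Eomes, a mesendoderm factor, had 18.3, 22.8 and 166 in wild type and 111, 248 and 272 in Shox2-/- libraries, with wild type library 3 inside the Shox2-/- range (log2 difference 2.21, adjusted p = 0.307). T, the founding member of the family and a mesoderm factor, had 91.3, 56.1 and 353 against 62.3, 32.2 and 25.9 (log2 difference -1.68, adjusted p = 0.334). Tbx6, of presomitic mesoderm, lay between 38.1 and 72.3 in all 6 libraries (adjusted p = 0.785). Tbx10, Tbx19, Tbx21 and Tbx22 had at most 5.5 normalized counts and were not tested.

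Genes of proteins that bind or assist T-box factors stood mostly on the higher side. Of 19 tested, 17 had a higher mean in Shox2-/- and 2 a lower one, where 51.8% of all tested genes were higher. The median log2 difference of the 19 was 0.30, and 0 were called. With 1 library left out the higher ones numbered 13 (without wild type library 3) to 18 (without wild type library 2). With sample quality weights they were 14. At an unadjusted p under 0.05 there were 5 on the higher side, against 6.92% of all genes, and 0 on the lower, against 7.23%. Groups did not overlap for 6, all higher, where 12.8% of all genes did so on that side. Mef2c, a cardiac MADS-box factor, had 1783, 1916 and 1756 in wild type and 2571, 4022 and 3054 in Shox2-/- libraries, without overlap (log2 difference 0.80, standard error 0.16, adjusted p = 0.201). Smarcd3, a subunit of the BAF chromatin remodeller that works with Tbx5, had 372, 438 and 353 against 625, 521 and 644 (log2 difference 0.62, adjusted p = 0.226). Sall4, a zinc finger partner of Tbx5, had 715, 645 and 514 against 1948, 1109 and 920 (log2 difference 1.02, adjusted p = 0.25). Isl1, a LIM homeodomain factor of the second heart field and the node, had 461, 487 and 507 against 1356, 922 and 601 (log2 difference 0.91, adjusted p = 0.265).

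Upstream regulators of T-box genes, 18 tested and sharing Isl1, Gata4 and Nkx2-5 with the partners, included 15 with a higher and 3 with a lower mean. Without wild type library 3, Shox2-/- library 2 or Shox2-/- library 3 those numbers were 13 and 5. Over all tested genes 51.8% had a higher mean. The median log2 difference of the list was 0.21 and 0 of its genes were called. At an unadjusted p under 0.05, 5 were higher and 1 was lower, where 6.92% and 7.23% of all genes stood on those sides. The 5 include Shox2, the targeted gene, which had the lowest p of the list. Bmp4, a ligand that induces Tbx2 and Tbx3, had 1510, 1391 and 1504 in wild type and 1754, 1989 and 1788 in Shox2-/- libraries, a small difference without overlap (log2 difference 0.33, standard error 0.10, adjusted p = 0.271). Bmp7, a related ligand outside the 4 genes named by rank, had a log2 difference of 0.68 (adjusted p = 0.287). Shh, a ligand upstream of Tbx1 in the pharynx, had 19.9, 21.5 and 105 against 6.92, 13.4 and 2.96 (log2 difference -2.26, adjusted p = 0.287).

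Genes that Tbx2 or Tbx3 are known to repress stood mostly lower. Of 11 tested, 10 had a lower and 1 a higher mean in Shox2-/-, where 51.8% of all tested genes were higher. The median log2 difference of the 11 was -0.61 and 0 were called. At an unadjusted p under 0.05 there were 4 lower and 1 higher, where 7.23% and 6.92% of all genes stood on those sides. Without overlap of the groups 5 were lower and 1 higher, where 10.8% and 12.8% of all genes did so. A stricter filter (50 or more normalized counts in no fewer than 3 libraries) left 8 tested. Of those 8, 2 were lower and 1 higher at an unadjusted p under 0.05. Cdkn2a, a cell cycle inhibitor, had 121, 121 and 283 in wild type and 15.6, 34.9 and 34.8 in Shox2-/- libraries (log2 difference -2.54, standard error 0.45, adjusted p = 0.182). Cdh1, the epithelial cadherin, had 624, 647 and 680 against 292, 476 and 210 (log2 difference -1.07, adjusted p = 0.235). Mycn, a transcription factor of the MYC family that drives growth, went the other way with 715, 686 and 684 against 1950, 1169 and 1141 (log2 difference 0.98, standard error 0.21, adjusted p = 0.208).

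Genes known to be activated by Tbx5 include some of the same names, among them Nppa, Nppb and Gja5. Of 13 tested, 9 had a lower and 4 a higher mean, where 51.8% of all tested genes were higher. The median log2 difference of the 13 was -0.38 and 0 were called. At an unadjusted p under 0.05 there were 3, all lower, where 7.23% of all genes stood on that side. Without wild type library 1 or Shox2-/- library 1 that total was 1, and without Shox2-/- library 3 it was 5. With the stricter filter (50 or more normalized counts in no fewer than 3 libraries) it was 0 of 11 tested. Nppa, the atrial natriuretic peptide gene, had 24.9, 25.4 and 14.1 in wild type and 5.19, 10.7 and 13.3 in Shox2-/- libraries (log2 difference -1.10, adjusted p = 0.334). Osr1, a mesoderm zinc finger factor, had 271, 228 and 418 against 192, 97.4 and 231 (log2 difference -0.85, adjusted p = 0.352). Atp2a2, the calcium pump of the sarcoplasmic reticulum, had 6287, 6319 and 5671 against 8215, 7357 and 6139 (log2 difference 0.24, adjusted p = 0.432).

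Of the genes downstream of Tbx1, 7 of 9 were tested, with 0 called and a median log2 difference of 0.07. At an unadjusted p under 0.05, 2 were higher and 1 was lower, where 6.92% and 7.23% of all genes stood on those sides. Wnt5a, a non-canonical Wnt ligand, had 1150, 1109 and 829 in wild type and 1768, 2237 and 1207 in Shox2-/- libraries (log2 difference 0.72, adjusted p = 0.287).

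**Figure D4:**
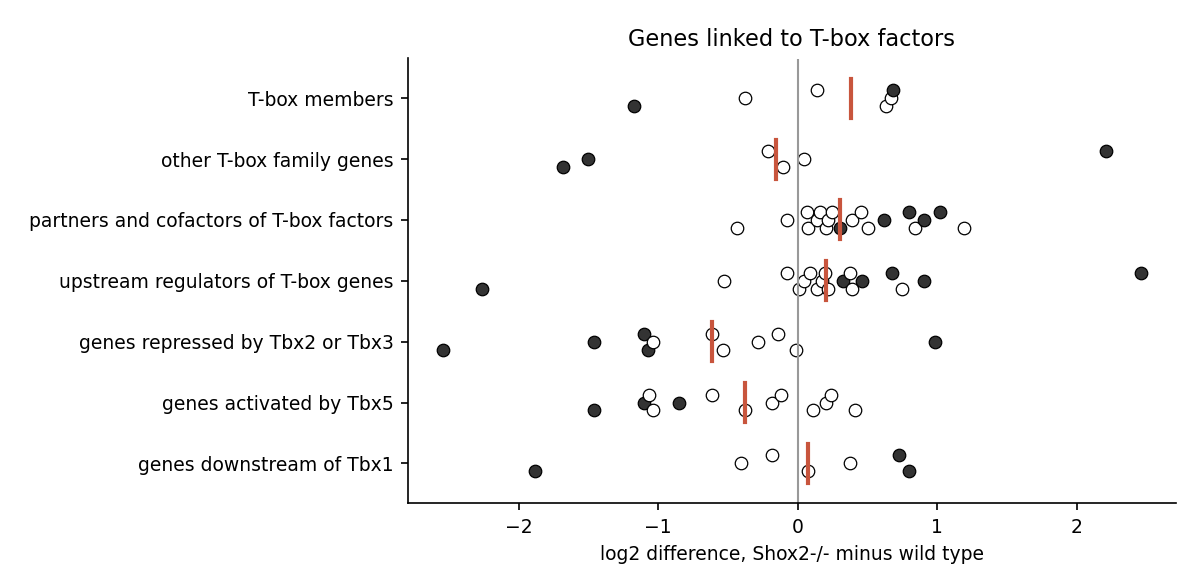
Log2 difference of Shox2-/- minus wild type for the tested T-box members and for 6 lists of related genes, 1 point per gene, with filled points at an unadjusted p under 0.05 and a red bar at each list's median. The partners lie mostly right of 0 and the genes repressed by Tbx2 or Tbx3 mostly left of it, with medians of 0.30 and -0.61.

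For each tested member, the 3 genes with the most similar profile over the 6 libraries were taken from 13299 tested genes averaging 50 or more normalized counts, by Pearson r on the log2 scale. For Tbx18 they were St14 (r = 0.999), Dhrs11 (r = 0.990) and Dmc1 (r = 0.989). St14, a membrane serine protease, had 259, 226 and 208 in wild type and 119, 165 and 110 in Shox2-/- libraries, the same order of libraries as Tbx18. For Tbx2 they were Dnajc15 (r = 0.994), Colgalt2 (r = 0.994) and Cyp51 (r = 0.992). For Tbx3 they were Tcf12 (r = 0.997), Surf2 (r = 0.996) and Gm12479 (r = 0.995), and Tcf12, a basic helix-loop-helix factor, was likewise highest in Shox2-/- library 1 at 10235. For Tbx4 they were Shroom3, Mpp2 and Fam83h (each r = 0.996), all lowest in wild type library 3. For Tbx5 they were Oplah (r = 0.989), A230103J11Rik (r = 0.987) and Kif13a (r = 0.986), and for Tbx20 Frs2 (r = 0.996), Gm23153 (r = 0.995) and Wnk3 (r = 0.993). These names describe likeness over 6 libraries only, picked as the extremes of many genes.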

How the data were processed

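The values were made by the authors: per the submitters' processing notes, the tools were DESeq2 1.14.0, HTSeq, BWA and CASAVA 1.8.2 with build mm10, with no role stated. The deposited files hold normalized read counts with a decimal comma, 1 per gene and library, and their unit was worked out from the values as counts divided by 1 size factor per library. Reads were recovered by dividing by the value of 1 read. Values were tested as log2(value + 1) with limma 3.58.1 in R 4.3.3 (1 term for the group, trend, two-sided, Benjamini-Hochberg over 17034 genes with at least 10 in at least 3 libraries, called at an adjusted p under 0.05). A difference on this scale understates that of low genes. Python 3.11.15 and MAFFT 7.526 served for sequences and alignment. The script was tested on simulated data. The members and the 15 gene lists were chosen with earlier results of these data known. Named genes were the members, Shox2, Alcam, up to 4 tested genes per list with the lowest p, genes within 10 kb of a member, and the 3 most similar genes per member. Some items that this rule would name are not reported here. Hcn4, Bmp7, Tbx10, Tbx19, Tbx21 and Tbx22 were named after their values were seen. Alternatives were other pseudocounts (0.5 and 5), filters, scalings, voom, libraries left out or averaged, voom without quality weights and marker sums without the most abundant gene (both chosen after seeing the data), a term for Diff9 in the titles, and another gene length. The exact test over libraries used all 20 arrangements.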

Additional observations from a re-analysis of the deposited data

How the results depend on the processing

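For the members, their ratios and the counts over all genes, 158 alternative values were computed. In 144 of them a tested value neither crossed the threshold nor reversed, an untested one moved by less than 1 SD between libraries, or a count stayed within 1.5 times. Since 0 members were called, a tested difference could move far and still be counted there. Tbx3 went from 0.67 to 0.098 without Shox2-/- library 1, and Tbx5 from -0.38 to -0.93 without wild type library 3. The number 144 is thus not a measure of stable sizes. Uncalled log2 ratios did turn sign with 1 library left out: -0.465 to 1.003 for Tbx2 to Tbx4 and -0.2086 to 0.4432 for Tbx2 to Tbx3, against 0.4962 to 1.772 for Tbx3 to Tbx5. With voom and sample quality weights the log2 difference was 0.8479 for Tbx2, now called, -0.138 for Tbx4 and -0.03348 for Tbx20, and 303 genes were called. The cause was not tested. In the Diff9 libraries alone the differences were -1.574 for Tbx18, -0.9792 for Tbx5, -0.246 for Tbx4 and -0.1823 for Tbx20. They were 0.9995 for Tbx2 and 0.6125 for Tbx3 there, with no test since 1 group has 1 library. Leaving out 1 library gave -0.1761 to 1.051 for Tbx4 and -0.02006 to 0.2269 for Tbx20, the negative values without wild type library 3. It gave 0 to 51 called genes, 51 without Shox2-/- library 2. Of the members it left 1 to 3 with an unadjusted p under 0.05, 1 without wild type library 2, Shox2-/- library 1 or Shox2-/- library 3. With wild type libraries 1 and 2 averaged, 1 member had such a p. Without the filter on low values, 2 genes were called. The edgeR and DESeq2 alternatives were not run. No paired analysis was possible because the groups share fewer than 2 numbers in their titles. Depth limits Tbx1 most, then Tbx18 and Tbx5.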
